A study of Homo sapiens with 16 samples.

Results

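The genes of the human Fc gamma receptors, of their signalling chain and of the neonatal Fc receptor were followed in 2 leukaemia cell lines. They are FCGR1A, FCGR2A, FCGR2B, FCGR2C, FCGR3A, FCGR3B, FCER1G and FCGRT. They were chosen by name as a receptor family, and all 8 were found among the 60603 genes of the count table. RNA was measured in SKNO-1, a myeloid leukaemia line that carries the RUNX1-RUNX1T1 fusion, and in U-937, a monocyte-like line, both labelled as AML (acute myeloid leukaemia) lines. Each line received the solvent DMSO, all-trans retinoic acid (ATRA), Corin, or both agents together, at 0.1 µM each for 24 h, with 2 libraries in each of the 8 groups. ATRA is the ligand of the retinoic acid receptors, and Corin inhibits the histone deacetylase and the demethylase of the CoREST repressor complex. SKNO-1 medium also held GM-CSF at 10 ng/mL in all 4 groups and U-937 medium did not, so the line and its medium cannot be told apart. Each line stands for itself alone and not for a set of patients.

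Fc gamma receptors bind the constant part of immunoglobulin G and tie antibody to the phagocytosis, oxidative burst and cytokine release of myeloid cells. The activating receptors signal through an ITAM, a stretch with a pair of tyrosines that Src-family kinases phosphorylate and that then recruits the kinase SYK. FCGR1A (CD64, the high-affinity receptor) and FCGR3A (CD16A) borrow the ITAM of the gamma chain encoded by FCER1G, whereas FCGR2A (CD32A) carries its own. FCGR2B (CD32B) carries an ITIM, a single-tyrosine stretch that recruits the phosphatase SHIP1 and restrains the activating receptors. FCGR2C holds an extracellular part like that of FCGR2B and a cytoplasmic part like that of FCGR2A, and many people carry an allele that does not encode a full protein. FCGR3B (CD16B) is a lipid-anchored receptor of neutrophils. FCGRT encodes the neonatal receptor, which pairs with beta-2-microglobulin and protects immunoglobulin G from breakdown inside cells.

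The coding stretches of these motifs are shown for the members described above as carrying them, and FCGR2A and FCGR2C cannot be told apart there. They were read from the canonical GENCODE release 44 transcripts (GRCh38), 5′ to 3′ on the coding strand, and the codons of the motif tyrosines are in capitals.
FCER1G ITAM: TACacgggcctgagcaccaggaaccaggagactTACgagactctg
FCGR2A ITAM: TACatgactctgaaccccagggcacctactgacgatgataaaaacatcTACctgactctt
FCGR2C ITAM: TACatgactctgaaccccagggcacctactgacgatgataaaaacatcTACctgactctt
FCGR2B ITIM: atcaccTATtcacttctc
The FCER1G stretch covers residues 65 to 79 of 86, and the FCGR2B stretch covers residues 290 to 295 of 310. The FCGR2A stretch (residues 288 to 307 of 317) and the FCGR2C stretch (residues 294 to 313 of 323) were the same over all 60 bases. The letter pattern used for the ITIM also matched the canonical transcripts of FCER1G (residues 41 to 46) and FCGRT (59 to 64). In FCGR1A it matched residues 131 to 136, 243 to 248 and 294 to 299. The pattern alone therefore does not separate activating from inhibitory members. All the genes lie on chromosome 1 except FCGRT, which lies on chromosome 19. On GRCh38, FCGR2A spans chr1:161505430-161524013, FCGR2C chr1:161581339-161605662 and FCGR2B chr1:161663143-161678654, all on the plus strand, with FCGR3A at chr1:161541759-161550968 and FCGR3B at chr1:161623196-161631963 between them on the minus strand. FCER1G (chr1:161215234-161220699) and FCGR1A (chr1:149782671-149791675) lie farther off on the plus strand, as does FCGRT (chr19:49506816-49526428).

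Library totals ran from 32773369 to 37817314 estimated counts in SKNO-1 and from 28414479 to 37563237 in U-937. The DMSO pair of SKNO-1 stood apart. Its 2 libraries differed with an SD over genes of 0.36 on the log2 scale, against 0.11 to 0.13 in the other SKNO-1 pairs and 0.14 to 0.21 in U-937. That difference followed the GC content of the genes (r = 0.81 over 9338 genes, as a description). It also did so in U-937 with DMSO (r = 0.59) and both agents (0.41) and in SKNO-1 with ATRA (-0.43). In the remaining pairs r lay between -0.16 and 0.12. Labels give replicate numbers but no separate cultures, so p-values measure only the spread between these libraries, which may be technical. The myeloid genes CD33 and SPI1 were present in all 16 libraries (lowest 71.1 and 11.7 CPM, counts per 1000000 of the scaled library total), while the monocyte gene CD14 stayed at or below 0.810 CPM. RUNX1T1 was at 92.0 CPM or more in SKNO-1 and at or below 0.0344 in U-937. Among genes of other cell types, of the 5 natural killer genes 3 were present in every U-937 library, NKG7 at 70.5 to 139 CPM, NCAM1 at 3.04 to 6.11 and KLRF1 at 0.976 to 1.41, while GNLY and KLRD1 did not pass 0.0623 CPM in any library of either line. In SKNO-1 NKG7 was at 0.480 to 2.01 CPM and the other natural killer genes did not pass 0.150. MS4A1 (of 5 B cell genes) and ALAS2 (of 3 erythroid genes) were at 0 in all 16 libraries and CD3E and CD3G (of 4 T cell genes) at no more than 1 count. Of the other B cell genes CD79B reached 18.6 to 28.9 CPM in SKNO-1 and PAX5 0.414 to 11.1 in U-937, and of the T cell genes CD2 reached 3.23 CPM in U-937. The 6 myeloid genes, CD33 and SPI1 among them, summed to 133 to 150 CPM in U-937 with DMSO, 421 to 433 after ATRA, 189 to 205 after Corin and 732 to 759 after both agents. In SKNO-1, where MPO makes up most of it, that sum was 2807 to 3886, 3727 to 4064, 1966 to 2093 and 2684 to 2775 CPM. The 5 neutrophil genes, which share CSF3R with that list, summed to 55.8 to 64.3, 225 to 228, 59.0 to 64.0 and 237 to 272 CPM in U-937 in the same order. CSF3R, at 45.6 to 243 CPM, makes up most of that sum, and CAMP, MMP8 and LTF did not pass 7.39, 1.98 and 0.473 CPM there. In SKNO-1 the neutrophil sum was 66.0 to 91.6, 60.4 to 61.1, 60.8 to 61.7 and 86.0 to 89.6 CPM. The part of both lists in the results was not tested.

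How far the members can be read apart differs from gene to gene, since an estimated count shares out reads that fit several genes. Reads were 100 bases long, so the share of 100-base windows of each canonical transcript that occur unchanged in another gene was counted. No window of FCER1G or FCGRT did so. The share was 8.44% for FCGR2A, 11.8% for FCGR3A, 29.8% for FCGR2B, 45.2% for FCGR1A and 67.3% for FCGR2C. FCGR2C shared 60.2% of its windows with FCGR2B, and FCGR1A shared 34.6% with the pseudogene FCGR1CP. Values of FCGR1A, FCGR2B, FCGR2C, FCGR3A and FCGR3B are therefore model estimates and uncertain, and sums over near copies are given below beside them. Whether the counting used strand is not given in the sources used here.

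**Figure D1:**
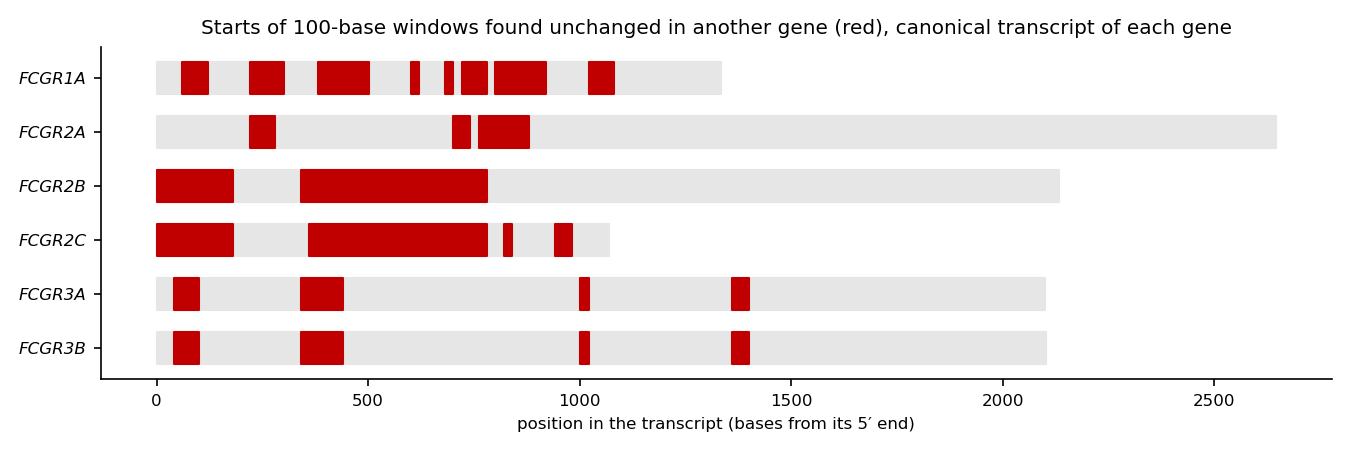
Canonical transcripts of the 6 members with shared sequence, drawn in bases from the 5′ end. Red marks starts of 100-base windows, sampled every 20 bases, that occur unchanged in another gene. In FCGR2B they lie in the 5′ part and the rest of the transcript is its own, while in FCGR2C they cover 67.3% of all windows.

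With DMSO the lines held different members at the top, in TPM, a scale that divides by transcript length and so allows levels of different genes to be compared. In SKNO-1 the order of levels was FCGR2A at 53.4 ± 13 TPM (SD, n = 2), FCGR1A at 31.1 ± 4.1, FCGRT at 13.1 ± 1.2, FCGR2C at 8.39 ± 2.5, FCER1G at 7.69 ± 2.2 and FCGR2B at 0.0750 ± 0.021. The libraries of FCGR2C and FCER1G overlapped and no other neighbours in that order did. In U-937 the gamma chain led: FCER1G stood at 70.3 ± 11 TPM, FCGRT at 43.2 ± 2.6, FCGR2A at 32.2 ± 0.41, FCGR1A at 15.5 ± 1.9, FCGR2B at 7.58 ± 0.6 and FCGR2C at 4.57 ± 0.27, with no overlap between neighbours. FCGR3A and FCGR3B were at or below 0.03 TPM in the DMSO libraries of both lines. In bulk RNA, fewer expressing cells and less RNA per cell cannot be told apart.

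Between the lines with DMSO, 6 of the 8 genes differed by edgeR's quasi-likelihood test, 3 higher and 3 lower in U-937, where 64.8% of all genes were called, 31.7% higher and 33.1% lower. FCGR2B was 42.0-fold higher in U-937 (log2 difference 5.39 ± 0.16). Its SKNO-1 level rests on 23 counts over both DMSO libraries, near the low-count limit. Its test is therefore not given, and its place among these 6 supports nothing. FCER1G was 7.33-fold higher in U-937 (2.87 ± 0.15, adjusted p = 4.09e-12). FCGRT was 2.49-fold higher (1.32 ± 0.14, adjusted p = 1.51e-07). FCGR1A was 2.27-fold lower in U-937 (-1.18 ± 0.11, adjusted p = 1.04e-08), FCGR2A 1.84-fold lower (-0.88 ± 0.09, adjusted p = 7.97e-08) and FCGR2C 1.84-fold lower (-0.88 ± 0.11, adjusted p = 1.29e-06). The sum of FCGR2B and FCGR2C was higher in U-937 (0.98, adjusted p = 1.01e-08). FCGR2B made up 72.5% of that sum in U-937 and 3.29% in SKNO-1. The sum therefore cannot show how reads of FCGR2C were shared out.

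**Figure D2:**
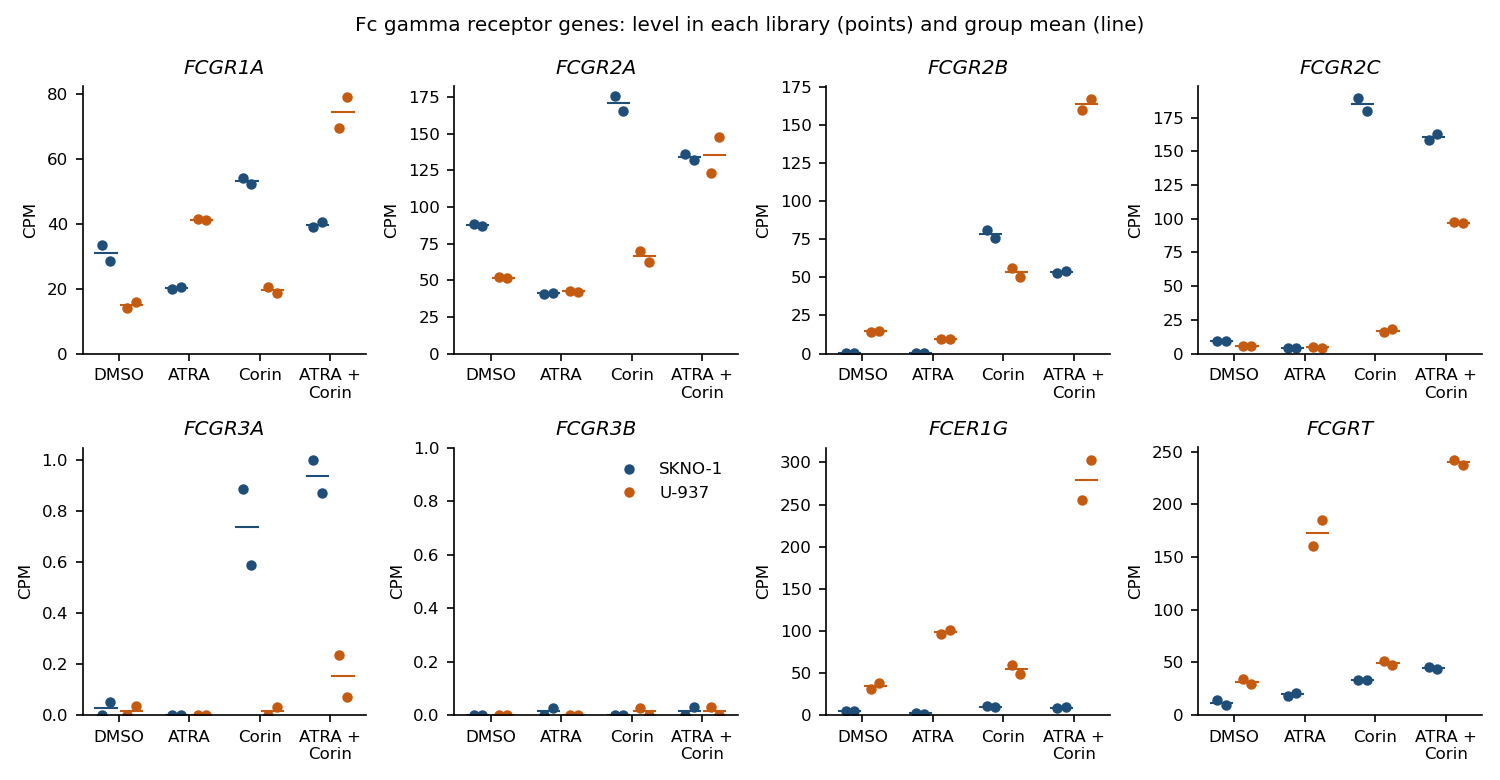
CPM of the 8 genes in each library (points) and the mean of each group (lines), on linear axes from 0, in SKNO-1 (blue) and U-937 (orange). FCGR2B and FCGR2C are high in the Corin and combination libraries of SKNO-1, FCER1G and FCGRT in the ATRA and combination libraries of U-937, and FCGR3B is near 0 throughout.

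Corin raised the members that passed the filter in each line, whereas ATRA lowered most of them in SKNO-1 and raised 3 in U-937. Of the 8 genes, 7 passed the low-count filter in SKNO-1 and 6 in U-937. In SKNO-1, ATRA lowered 4 of the 8 genes (FCGR1A, FCGR2A, FCGR2C and FCER1G) and raised FCGRT, where 6.76% of all genes were called, 2.96% higher and 3.79% lower (17479 tested). Corin raised 7 of the 8 in SKNO-1, where 37.9% of all genes were called, 20.5% higher and 17.3% lower. The combination raised the same 7, where 46.7% of all genes were called, 24.7% higher and 22% lower. FCGR3A passed the low-count filter there only through the Corin and combination libraries, and FCGR2B lay near its limit in the others, so their place in these counts supports nothing. In U-937, ATRA raised FCGR1A, FCER1G and FCGRT and lowered FCGR2A and FCGR2B, where 41.8% of all genes were called, 21.7% higher and 20.1% lower (17717 tested). Corin raised 6 of the 8 in U-937, where 12.9% of all genes were called, 8.55% higher and 4.4% lower. The combination raised 6 of the 8, where 65.3% of all genes were called, 33.1% higher and 32.2% lower. Over the members tested the median log2 fold change was -1.09 with ATRA, 1.52 with Corin and 1.94 with both in SKNO-1, or -1.09, 1.20 and 1.01 without FCGR3A and FCGR2B. It was 0.60, 0.66 and 2.98 in U-937. The medians of all genes tested lay between 0.00 and 0.05. The 3 comparisons within a line share their DMSO libraries.

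**Figure D3:**
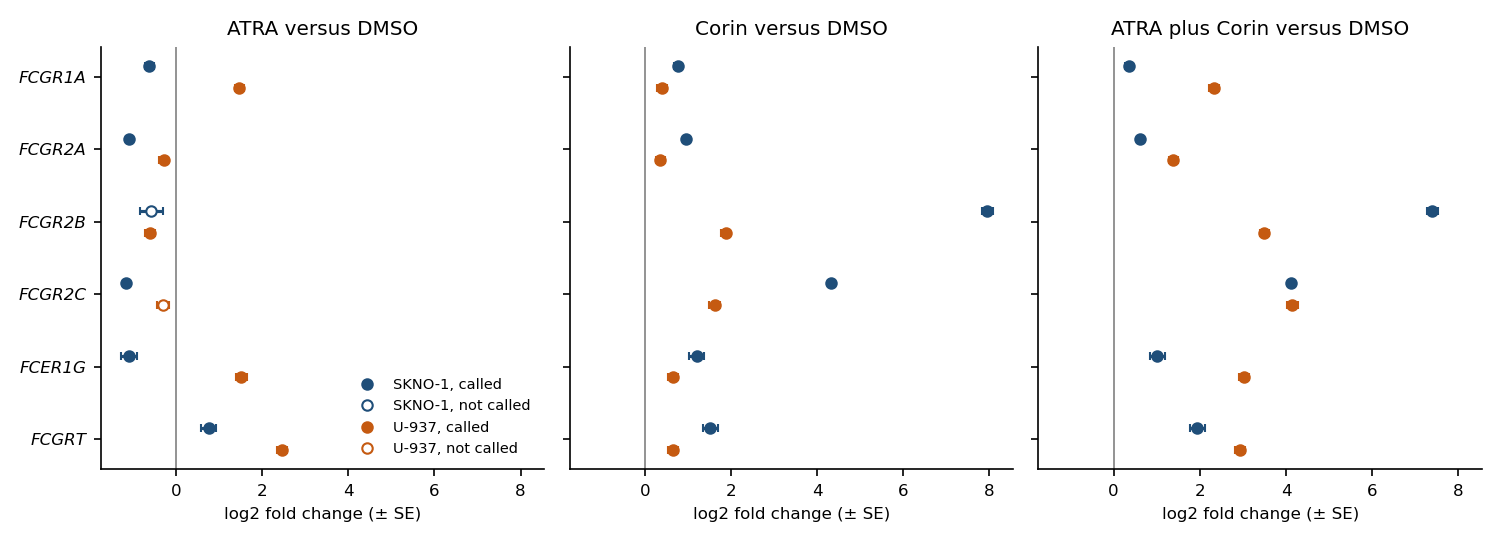
Log2 fold changes against DMSO (points) with their SE (bars) for the 6 genes tested in both lines, SKNO-1 in blue and U-937 in orange, filled where the adjusted p was under 0.05. With ATRA most SKNO-1 points lie below 0 while FCGR1A, FCER1G and FCGRT of U-937 lie above it, and with Corin every point lies above 0.

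FCGR1A, the high-affinity receptor, went in opposite directions with ATRA. In SKNO-1 it stood at 33.5 and 28.4 CPM in the DMSO libraries, 19.9 and 20.6 in those with ATRA, 54.1 and 52.2 in those with Corin and 39.0 and 40.4 in those with the combination. ATRA libraries were the lowest and Corin libraries the highest, with no overlap in CPM between groups of libraries. In TPM the DMSO libraries (28.2 and 34.0) and the combination libraries (30.0 and 32.0) overlapped. It fell 1.53-fold with ATRA (log2 fold change -0.61 ± 0.09, edgeR adjusted p = 0.00592) and rose 1.72-fold with Corin (0.78 ± 0.09, adjusted p = 0.000483). The rise with both agents was 1.28-fold (0.36 ± 0.09, adjusted p = 0.0133), and it was not called without either combination library (adjusted p = 0.0576 to 0.0911). Without DMSO replicate 2 its log2 value was 0.24 and still called. The fall with ATRA was not called without ATRA replicate 1 (adjusted p = 0.0571). In a fit of only the libraries compared the fall (0.106) and the rise with both (0.0752) were not called.

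In U-937, FCGR1A stood at 14.0 and 15.7 CPM in the DMSO libraries, 41.4 and 41.2 in those with ATRA, 20.5 and 18.6 in those with Corin and 69.5 and 79.3 in those with the combination. Every ATRA and combination library lay above every DMSO and Corin library. It rose 2.78-fold with ATRA (1.48 ± 0.11, adjusted p = 2.23e-10) and 5.0-fold with both (2.32 ± 0.11, adjusted p = 1.23e-14). The 1.32-fold rise with Corin alone (0.40 ± 0.11, adjusted p = 0.0214) was not called without Corin replicate 1 or DMSO replicate 1 (adjusted p = 0.161 to 0.215). FCGR1A made up 67.5% ± 1.07 of the counts of FCGR1A, FCGR1B and FCGR1CP in U-937 with DMSO and 41.1% ± 3.37 in SKNO-1 (SD, n = 2). Their sum kept the directions of FCGR1A: -0.64 with ATRA and 0.99 with Corin in SKNO-1, and 1.54 and 0.57 in U-937, as log2 fold changes.

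FCER1G, the ITAM-bearing gamma chain that FCGR1A and FCGR3A need, had the highest TPM of the members in U-937 with DMSO, Corin and both agents. In that line it stood at 31.0 and 37.6 CPM in the DMSO libraries, 96.5 and 101 in those with ATRA, 59.3 and 49.1 in those with Corin and 256 and 303 in those with the combination. The groups of libraries did not overlap, with DMSO lowest and the combination highest. It rose 2.87-fold with ATRA (log2 fold change 1.52 ± 0.12, edgeR adjusted p = 8.17e-10), 1.58-fold with Corin (0.66 ± 0.12, adjusted p = 0.000432) and 8.14-fold with both (3.02 ± 0.12, adjusted p = 2.42e-15). In SKNO-1 the chain was scarce, at 4.19 and 4.37 CPM in the DMSO libraries, 2.37 and 1.68 in those with ATRA, 10.4 and 9.31 in those with Corin and 8.01 and 9.27 in those with the combination. The ATRA libraries were the lowest and the Corin libraries the highest, with no overlap between groups. There it fell 2.13-fold with ATRA (-1.09 ± 0.19, adjusted p = 0.0119), a fall that was not called without ATRA replicate 2 (adjusted p = 0.0815) or in a fit of only the ATRA and DMSO libraries (0.131). Corin raised it 2.30-fold (1.20 ± 0.17, adjusted p = 0.0013) and both agents 2.02-fold (1.01 ± 0.17, adjusted p = 0.00223).

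FCGR2A, the activating receptor with its own ITAM, stood in SKNO-1 at 88.3 and 86.8 CPM in the DMSO libraries, 40.6 and 41.4 in those with ATRA, 176 and 166 in those with Corin and 136 and 132 in those with the combination. The ATRA libraries lay below, and the Corin and combination libraries above, both DMSO libraries. It fell 2.14-fold with ATRA (-1.09 ± 0.06, adjusted p = 3.44e-05, edgeR) and rose 1.95-fold with Corin (0.96 ± 0.06, adjusted p = 2.18e-05) and 1.53-fold with both (0.62 ± 0.06, adjusted p = 0.000115). In U-937 it stood at 52.0 and 51.5 CPM in the DMSO libraries, 43.0 and 42.2 in those with ATRA, 70.2 and 62.6 in those with Corin and 123 and 148 in those with the combination. The groups did not overlap, with the ATRA libraries lowest. Of the 3 treatments the combination moved it most: 2.61-fold (1.38 ± 0.11, adjusted p = 4.32e-11). ATRA lowered it 1.22-fold (-0.28 ± 0.11, adjusted p = 0.0356) and Corin raised it 1.28-fold (0.36 ± 0.10, adjusted p = 0.0236). The ATRA call was lost without any of the 4 ATRA and DMSO libraries in turn (adjusted p = 0.109 to 0.154), and the Corin call without Corin replicate 1 or either DMSO library (0.114 to 0.196).

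FCGR2B, the inhibitory receptor, had the largest change with Corin in SKNO-1 among the members. It stood at 0.289 and 0.342 CPM in the DMSO libraries, 0.240 and 0.189 in those with ATRA, 81.0 and 76.0 in those with Corin and 52.7 and 54.2 in those with the combination. The DMSO and ATRA libraries held 7 to 13 estimated counts each and the Corin and combination libraries 1690 to 2841. The rise was 248-fold with Corin (log2 fold change 7.95 ± 0.13) and 169-fold with both agents (7.40 ± 0.13). No test is given for these rises, since without Corin the gene lay near the limit of the low-count filter. With ATRA alone the log2 fold change was -0.57 ± 0.27 (edgeR adjusted p = 0.59), which did not pass the test. In U-937, where FCGR2B was present from the start, it stood at 14.2 and 14.9 CPM in the DMSO libraries, 9.62 and 9.41 in those with ATRA, 56.3 and 50.5 in those with Corin and 160 and 167 in those with the combination. It fell 1.53-fold with ATRA (-0.61 ± 0.11, adjusted p = 0.000121) and rose 3.68-fold with Corin (1.88 ± 0.11, adjusted p = 4.66e-12) and 11.3-fold with both (3.49 ± 0.11, adjusted p = 4.27e-18).

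FCGR2C, with its FCGR2A-like ITAM, stood in SKNO-1 at 8.97 and 9.56 CPM in the DMSO libraries, 4.26 and 4.05 in those with ATRA, 189 and 180 in those with Corin and 159 and 163 in those with the combination. ATRA libraries were lowest and Corin libraries highest. It fell 2.23-fold with ATRA (-1.16 ± 0.08, adjusted p = 0.000112, edgeR) and rose 19.9-fold with Corin (4.32 ± 0.07, adjusted p = 8.25e-08) and 17.4-fold with both (4.12 ± 0.07, adjusted p = 5.7e-08). In U-937 it stood at 5.39 and 5.63 CPM in the DMSO libraries, 4.80 and 4.19 in those with ATRA, 15.7 and 18.4 in those with Corin and 97.5 and 96.6 in those with the combination. There Corin raised it 3.09-fold (1.63 ± 0.13, adjusted p = 1.5e-09) and both agents 17.6-fold (4.14 ± 0.13, adjusted p = 2.95e-18), and the change with ATRA alone (-0.29 ± 0.14) did not pass the test (adjusted p = 0.105).

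The split between these 2 genes differed between the lines and moved with Corin in SKNO-1. FCGR2B made up 3.29% ± 0.235 of their joint counts in SKNO-1 with DMSO, 4.90% ± 0.619 after ATRA, 29.8% ± 0.223 after Corin and 24.9% ± 0.0201 after both (SD, n = 2). In U-937 the shares were 72.5% ± 0.0892, 68.0% ± 1.74, 75.8% ± 3.42 and 62.8% ± 0.904. Counted together, the pair changed by -1.13 with ATRA, 4.78 with Corin and 4.48 with both in SKNO-1, and by -0.52, 1.82 and 3.70 in U-937 (log2 fold changes, all 6 called, largest edgeR adjusted p = 0.000321). These sums do not depend on how reads were divided within the pair.

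**Figure D4:**
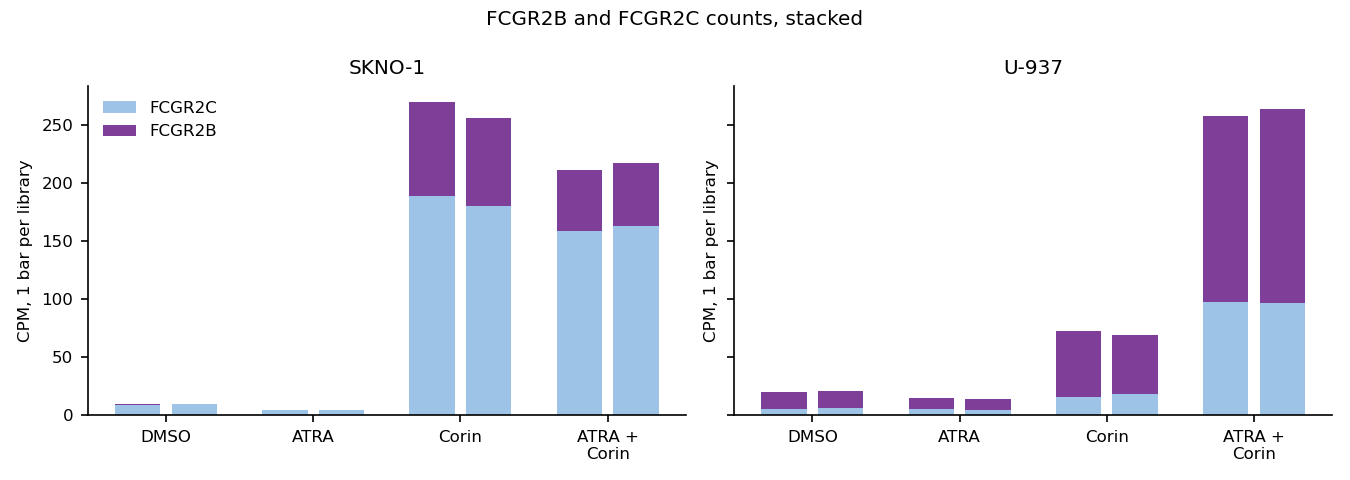
CPM of FCGR2C (light blue) and FCGR2B (purple) stacked, with 1 bar per library and axes from 0. In SKNO-1 the bars with Corin are mostly FCGR2C, and in U-937 FCGR2B makes up the larger part of every bar.

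FCGR3A, the CD16A receptor of natural killer cells and some monocytes, was close to absent. Over the 2 libraries of a group SKNO-1 held 2 counts with DMSO, 0 after ATRA, 51 after Corin and 61 after both. Corin libraries ran from 0.588 to 0.883 CPM and combination libraries from 0.870 to 0.997, so those groups overlapped and both lay above DMSO. The ratio to DMSO was 26.8 with Corin (exact conditional 95% interval 7.04 to 227) and 33.8 with both (8.97 to 286). No test is given for these rises, since the gene passed the filter only through the groups where it is high. Against ATRA alone, with 0 counts over the group, the combination was at least 21.9-fold higher, taking a floor of 3 counts over the group. Both DMSO counts were in replicate 2, and the fitted log2 fold change, which depends on the prior count, ran from 3.78 without DMSO replicate 1 to 7.66 without DMSO replicate 2 with Corin, and from 4.13 to 8.01 with both. U-937 held 1, 0, 1 and 10 counts in the same order and the gene was not tested in that line, with a ratio of 9.76 for both agents (1.39 to 424). These intervals cover counting error only. FCGR3B, the neutrophil receptor, had 4 counts over all 16 libraries, 0 or 1 in each, which gives no change to test. A group at 0 allows up to 0.0413 CPM in SKNO-1 with DMSO and 0.0489 CPM in U-937 with DMSO.

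FCGRT, the neonatal receptor, rose in all 6 comparisons with DMSO. In U-937 it stood at 33.8 and 29.0 CPM in the DMSO libraries, 161 and 185 in those with ATRA, 51.3 and 47.5 in those with Corin and 242 and 238 in those with the combination, and the groups of libraries did not overlap. It rose 5.50-fold with ATRA (log2 fold change 2.46 ± 0.11, edgeR adjusted p = 1.15e-14), 1.57-fold with Corin (0.65 ± 0.11, adjusted p = 0.000131) and 7.63-fold with both (2.93 ± 0.11, adjusted p = 1.24e-16). In SKNO-1 it stood at 13.9 and 9.32 CPM in the DMSO libraries, 17.9 and 21.4 in those with ATRA, 33.1 and 33.3 in those with Corin and 45.5 and 43.5 in those with the combination. The groups did not overlap, and the DMSO pair differed most. There the rise was 2.86-fold with Corin (1.52 ± 0.17, adjusted p = 0.000445) and 3.84-fold with both (1.94 ± 0.18, adjusted p = 9.6e-05). The 1.69-fold rise with ATRA (0.76 ± 0.17, adjusted p = 0.0404) lost its call without any 1 of the 6 treated SKNO-1 libraries (adjusted p = 0.0945 to 0.312) or in a fit of only the ATRA and DMSO libraries (0.276), and its log2 fold change ran from 0.46 without DMSO replicate 2 to 1.03 without DMSO replicate 1. B2M, which encodes its partner beta-2-microglobulin and was looked at for that role after its values were seen, had log2 fold changes of 0.71 ± 0.12, 0.16 ± 0.12 and 1.28 ± 0.12 with ATRA, Corin and both in U-937, of which the first and the last were called. In SKNO-1 the values were -0.03 ± 0.05, 0.52 ± 0.05 and 0.08 ± 0.05, and the rise with Corin was called (edgeR adjusted p = 0.000302).

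Corin on top of ATRA raised 7 of the 8 in SKNO-1, where 44.8% of all genes were called, 23% higher and 21.8% lower. FCGR3A is 1 of these 7 and entered the test only through the libraries with Corin. FCGR2B, also among the 7, lay near the filter limit without Corin, so the place of both in this count supports nothing. In U-937 Corin on top of ATRA raised 6 of the 8, where 47.4% of all genes were called, 22.5% higher and 24.8% lower. FCGR2B rose 251-fold over ATRA in SKNO-1 (7.97 ± 0.14, no test given) and 17.2-fold in U-937 (4.10 ± 0.11, edgeR adjusted p = 3.74e-18). For ATRA on top of Corin the difference between the lines was not tested. In U-937 it raised 6 of the 8, where 60.5% of all genes were called, 29.9% higher and 30.6% lower. The rises went from 2.03-fold for FCGR2A to 5.71-fold for FCGR2C. In SKNO-1 it lowered 3 of the 8 and raised 0, where 10.4% of all genes were called, 4.82% higher and 5.6% lower. FCGR2B fell 1.47-fold (-0.55 ± 0.08, adjusted p = 0.00426), FCGR1A 1.34-fold (-0.42 ± 0.09, adjusted p = 0.0274) and FCGR2A 1.27-fold (-0.35 ± 0.06, adjusted p = 0.00908). These calls rest on single libraries. FCGR1A was not called without any of the 6 treated libraries in turn (adjusted p = 0.0702 to 0.213), FCGR2A without any Corin or combination library (0.0517 to 0.123) and FCGR2B without Corin replicate 1 or either combination library (0.0647 to 0.0842). FCGR2C (-0.20, adjusted p = 0.0748) and FCGRT (0.43, adjusted p = 0.132) were not called. Without either DMSO library, the pair that stood apart, calls rose over all genes. The effects hardly moved there, with FCGR2C at -0.19 and FCGRT at 0.43 in each case. The FCGRT value was -0.057 (adjusted p = 0.633) with the GC trend removed.

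In U-937 the combination exceeded the sum of the single agents for 5 of the 8 genes, where 23.4% of all genes were called, 8.09% higher and 15.3% lower. Additivity here means that the log2 effect of both agents equals the sum of the 2 single effects. For FCGR2C the single effects would have given a 2.52-fold change and 17.6-fold was measured, a departure of 2.80 ± 0.18 (edgeR adjusted p = 4.06e-11). For FCGR2B 2.41-fold would have followed and 11.3-fold was measured (2.22 ± 0.15, adjusted p = 9.44e-11). The pair counted together departed by 2.40 (adjusted p = 9.5e-12). FCGR2A followed with 2.61-fold against 1.06-fold (1.31 ± 0.15, adjusted p = 3.39e-07) and FCER1G with 8.14-fold against 4.54-fold (0.84 ± 0.16, adjusted p = 0.000525). The departure of FCGR1A was small (0.45 ± 0.16, adjusted p = 0.0387). It was not called for FCGR1A and its near copies together (0.25, adjusted p = 0.252), nor with no low-count filter (0.0725), nor without combination replicate 2, either ATRA library, Corin replicate 2 or DMSO replicate 2 in turn (0.115 to 0.191). FCGRT departed by -0.18 ± 0.15, which did not pass the test (adjusted p = 0.435).

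In SKNO-1, 2 of the 8 genes departed from additivity, both upward, where 0.463% of all genes were called, 0.315% higher and 0.149% lower. FCGR2C reached 17.4-fold against 8.94-fold (0.96 ± 0.10, adjusted p = 0.0108, edgeR) and FCGR2A 1.53-fold against 0.914-fold (0.75 ± 0.08, adjusted p = 0.013). Both calls were lost without any 1 of the 6 treated libraries (adjusted p = 0.079 to 0.129 for FCGR2C and 0.0867 to 0.173 for FCGR2A). Without a DMSO library calls rose over all genes, so effect sizes alone are given for those fits. FCGR2A, FCGR2C and FCER1G departed upward in each case (FCER1G by 0.99 without replicate 1 and 0.92 without replicate 2). The departure of FCGRT was -0.60 without replicate 1, and that of FCGR1A was 0.36 without replicate 2. FCGR2B, at 169-fold against 167-fold, had a departure that did not pass the test (0.02 ± 0.28, adjusted p = 0.992). FCGR2B and FCGR2C counted together departed by 0.84 (adjusted p = 0.0206).

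**Figure D5:**
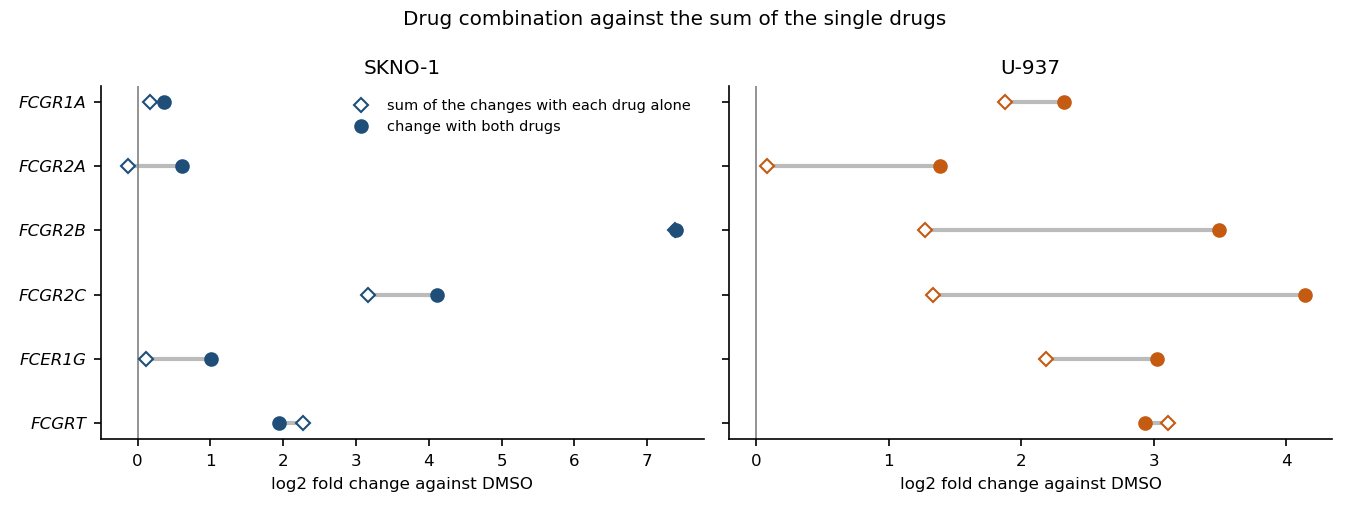
Log2 fold change with both agents (filled circles) and the sum of the 2 single changes (open diamonds) for 6 genes in SKNO-1 and U-937. The 2 panels have different horizontal scales. In U-937 the circles of FCGR2A, FCGR2B and FCGR2C lie 1.31, 2.22 and 2.80 log2 units to the right of the diamonds, and FCGRT lies to the left of its own in both lines.

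Tested as interactions in a fit of all 16 libraries (19872 genes), the ATRA effect was higher in U-937 than in SKNO-1 for 5 of the 8 genes, where 19.4% of all genes were called, 10.6% higher and 8.81% lower. The differences were largest for FCER1G (2.65 ± 0.23, adjusted p = 1.31e-07) and FCGR1A (2.13 ± 0.15, adjusted p = 8.92e-09). For FCGR2B the ATRA effect differed by 0.00 ± 0.36 (adjusted p = 1), and for FCGR2B and FCGR2C together by 0.60 (adjusted p = 0.00245). The Corin effect was lower in U-937 for 4 of the 8, where 12.8% of all genes were called, 5.28% higher and 7.49% lower. The largest were those of FCGR2B (-6.07 ± 0.19) and FCGR2C (-2.69 ± 0.15, adjusted p = 7.04e-10). FCGR2B lay near the low-count limit in SKNO-1 without Corin. Its test is therefore not given, and its place among these 4 supports nothing. Counted together the pair differed by -2.95 (adjusted p = 1.82e-11). FCGR2C makes up most of that sum in SKNO-1, so the sum cannot show how reads were divided. FCGR2B started 42.0-fold higher in U-937, and the levels reached with Corin, 81.0 and 76.0 CPM in SKNO-1 and 56.3 and 50.5 in U-937, were closer than the folds. For FCGRT the lower Corin effect in U-937 (-0.87 ± 0.19, adjusted p = 0.00493) was not called without DMSO replicate 1 of U-937 (adjusted p = 0.0551) or in a fit of only the libraries compared (0.0523). The effect of both agents was higher in U-937 for FCGR1A, FCGR2A, FCER1G and FCGRT and lower for FCGR2B, where 40.6% of all genes were called, 17.9% higher and 22.7% lower. FCGR2B again rests on its low counts in SKNO-1 with DMSO, so its place here supports nothing. For FCGR2C the effect of both agents differed by 0.07 ± 0.14 (adjusted p = 0.791), whereas the sum of FCGR2B and FCGR2C rose less in U-937 (-0.74, adjusted p = 3.34e-05).

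Of 22 genes that act below the receptors (kinases, adaptors, lipid kinases, phosphatases and the oxidase subunit NCF1), all 22 were tested in both lines. In U-937, ATRA raised 18 and lowered 2, Corin raised 3 and lowered 0, and both raised 17 and lowered 1. In SKNO-1 the counts were 4 raised and 2 lowered with ATRA, 6 and 2 with Corin, and 10 and 5 with both. Of all genes, ATRA raised 21.7%, Corin 8.55% and both 33.1% in U-937, and 2.96%, 20.5% and 24.7% in SKNO-1. The list medians were 0.49, 0.05 and 0.42 in U-937 and 0.09, 0.06 and 0.16 in SKNO-1 (log2). FGR, a Src-family kinase of myeloid cells, rose from 10.5 and 10.6 CPM with DMSO to 204 and 217 with ATRA in U-937 (4.32 ± 0.11, adjusted p = 5.37e-19, edgeR). In SKNO-1 it rose too but from a far lower level, 0.105 and 0.434 CPM to 1.05 and 1.49 (2.27 ± 0.46). FGR held 19 counts over the SKNO-1 DMSO libraries, near the low-count limit. Its test there is therefore not given, and its place in the SKNO-1 counts above supports nothing. PIK3CG, a catalytic subunit of phosphoinositide 3-kinase, rose 7.22-fold with ATRA in U-937 (2.85 ± 0.12, adjusted p = 5.35e-15) and 3.37-fold in SKNO-1 (1.75 ± 0.07, adjusted p = 8.82e-06). NCF1, a subunit of the phagocyte oxidase with close pseudogenes, went from 0.470 and 0.882 CPM to 28.1 and 30.8 with both agents in U-937 (5.46 ± 0.21, adjusted p = 1.11e-16).

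SYK and INPP5D (SHIP1) were looked at for their roles after their values were seen. SYK, which docks on the ITAM, rose 2.10-fold with both agents in U-937 (1.07 ± 0.11, adjusted p = 4.02e-09, edgeR) and fell 1.28-fold in SKNO-1 (-0.36 ± 0.06, adjusted p = 0.00232). INPP5D, which docks on the ITIM, rose 1.14-fold in SKNO-1 (0.19 ± 0.06, adjusted p = 0.0329); its log2 fold change in the other line, 0.09 ± 0.10, did not pass the test (adjusted p = 0.394).

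Of 20 other Fc receptor and adaptor genes, 10 were tested in SKNO-1 and 11 in U-937. ATRA raised 0 and lowered 1 in SKNO-1, Corin raised 7 and lowered 1, and both raised 6 and lowered 0. In U-937 the counts were 7 and 1, 5 and 0, and 10 and 1. The shares of all genes called, in either direction, were 6.76%, 37.9% and 46.7% in SKNO-1 and 41.8%, 12.9% and 65.3% in U-937. Several of these genes passed the filter through the groups where they are high. The list medians were -0.02, 1.50 and 1.47 in SKNO-1 and 0.83, 0.54 and 1.79 in U-937 (log2). TYROBP, an ITAM adaptor related to the gamma chain, rose with ATRA in U-937 from 3.46 and 3.51 CPM to 28.8 and 31.0 (3.10 ± 0.14, adjusted p = 9.1e-15, edgeR). FCER1A, the ligand-binding chain of the high-affinity IgE receptor that also uses the gamma chain, fell in SKNO-1 from 0.790 and 0.839 CPM to 0.0270 and 0.0900 with ATRA (-3.84 ± 0.40, adjusted p = 0.000937) and rose to 8.66 and 9.46 with Corin (3.48 ± 0.20, adjusted p = 1.97e-05). It was listed at 0 in all U-937 libraries. FCRLA, a receptor-like gene known from B cells, had 0 counts with DMSO and 532 with Corin over the SKNO-1 libraries, at least 186-fold higher with 3 counts over the group as the floor. In U-937 it had 2 and 200, a ratio of 90.0 (exact conditional 95% interval 24.6 to 749).

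FCRLA and FCRLB follow FCGR2B on chromosome 1, so the stretch from the start of FCGR2A to the end of FCRLB (chr1:161505430-161728143 on GRCh38, 223 kb) was looked at as a whole, a choice made after the values were seen. It held 16 genes of the count table, of which 8 were tested in SKNO-1 and 7 in U-937. In SKNO-1, Corin raised 8 of the 8, where 20.5% of all genes were called higher, and ATRA lowered 4 and raised 0, where 3.79% were called lower. FCGR3A, FCGR2B and FCRLA were near 0 without Corin there, and 5 of the other 5 rose. In U-937, Corin raised 5 of the 7 (8.55% of all genes higher) and both agents 7 of the 7 (33.1% higher), while ATRA lowered 3 (20.1% lower) and raised 0. Without FCRLA, near 0 in U-937 with DMSO, these were 4 of 6, 6 of 6 and 3 of 6. The heat-shock genes HSPA6 and HSPA7 were among the genes tested in both lines. In U-937, HSPA6 was not called with Corin (edgeR adjusted p = 0.0794). Neither HSPA6 nor HSPA7 was called there with ATRA (0.200 and 0.523). HSPA7, a pseudogene that starts 628 bases after the end of FCGR2C, changed by 2.79 ± 0.08, adjusted p = 1.11e-06 (edgeR) with Corin in SKNO-1 and by 4.16 ± 0.22, adjusted p = 1.69e-13 with both in U-937. HSPA6, 526 bases after FCGR2A, changed by 1.57 ± 0.21, adjusted p = 0.000873 and 1.21 ± 0.37, adjusted p = 0.00594. The 2 heat-shock genes share 34.4% of the 100-base windows of HSPA7.

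Of 7 members with a RefSeq promoter, 4 had at least 200 bases before the start in both RefSeq and GENCODE. Promoters of 3 of them are printed, and that of FCGR3B, which was near 0 in every library, is not. All 3 rose with Corin in both lines, as FCGR2C, FCER1G and FCGRT did. With ATRA in U-937 FCGR1A rose and FCGR2A and FCGR2B fell. The bases before the start of each gene come from RefSeq on GRCh38.p14, 5′ to 3′ on the plus strand, with matches to TTCNNNGAA (a STAT-type site) and GAGGAA (a core bound by ETS factors such as PU.1), on either strand, in capitals.
FCGR1A chr1:149782444-149782670: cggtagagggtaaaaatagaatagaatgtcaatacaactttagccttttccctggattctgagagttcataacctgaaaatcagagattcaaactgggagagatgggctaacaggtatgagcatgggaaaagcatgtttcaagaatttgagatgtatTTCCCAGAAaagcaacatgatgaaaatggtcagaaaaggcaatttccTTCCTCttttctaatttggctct
FCGR2A chr1:161505207-161505429: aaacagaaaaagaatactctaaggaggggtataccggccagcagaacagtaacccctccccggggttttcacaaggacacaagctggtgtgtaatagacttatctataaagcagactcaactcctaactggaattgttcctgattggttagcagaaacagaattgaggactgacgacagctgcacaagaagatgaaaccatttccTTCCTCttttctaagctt
FCGR2B chr1:161662893-161663142: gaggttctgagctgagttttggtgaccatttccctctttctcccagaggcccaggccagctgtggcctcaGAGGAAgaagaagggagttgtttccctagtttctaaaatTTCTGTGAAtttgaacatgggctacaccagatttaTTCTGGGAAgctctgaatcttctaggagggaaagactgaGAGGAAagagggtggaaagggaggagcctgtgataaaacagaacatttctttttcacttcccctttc
FCGR1A held 1 TTCNNNGAA and 1 GAGGAA, FCGR2A 0 and 1, and FCGR2B 2 and 2. The window of FCGR3B, not printed, held 0 and 0. Of 34943 RefSeq promoters, 6.56% held at least 1 TTCNNNGAA and 23.6% at least 1 GAGGAA within 250 bases before the start. The printed windows hold 227, 223 and 250 bases. The letters AGGTCA, a retinoic acid receptor half-site held by 12.1% of them, were not in these 3 windows. FCGR1A and FCGR2A shared a run of 20 bases close to the start, atttccttcctcttttctaa, which includes the GAGGAA match of both on the reverse strand. A match is a description of letters and not a site.

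The genes whose levels ran most like each member were found by Pearson's r of log2 CPM over the 16 libraries, centred within each line, among 10543 genes averaging 5 CPM or more. These libraries share their 8 groups, so r describes the pattern over groups and carries no test. For FCGR1A they were RALGAPA2 (r = 0.988), FRRS1 (r = 0.983) and PBXIP1 (r = 0.982). For FCER1G they were CDKN1A (r = 0.985), RFFL (r = 0.982) and TREML2 (r = 0.977). For FCGR2A they were PLD1 (r = 0.974), DGKA (r = 0.967) and ZNF792 (r = 0.964). FCGR2B ran most like PCNX2 (r = 0.991), FAM49A (r = 0.984) and SLC44A2 (r = 0.984). FCGR2C ran most like SIRPB2 (r = 0.989), CSTA (r = 0.986) and HSPA7 (r = 0.985). FCGRT ran most like SLA (r = 0.987), C1RL (r = 0.986) and GM2A (r = 0.983).

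In the authors' deposited table of each comparison with DMSO, made with DESeq2 per the submitters' processing notes, 35 of the 39 calls for members were the same as with edgeR. The authors' deposited tables did not call FCGR1A with both agents in SKNO-1 (0.29, adjusted p = 0.226), FCER1G with ATRA in SKNO-1 (-1.10, adjusted p = 0.0721), FCGRT with ATRA in SKNO-1 (0.75, adjusted p = 0.0744) or FCGR1A with Corin in U-937 (0.39, adjusted p = 0.120).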

How the data were processed

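Total RNA of 16 libraries (8 groups of 2) was sequenced with a stranded kit and 100-base reads, per the labels' protocols. Trimmomatic, STAR and RSEM with hg38 are named, with no order or version, per the submitters' processing notes. The authors deposited expected counts, also called estimated counts, per gene, with TPM values beside them. The authors also deposited tables of DESeq2 results (log2 fold changes, adjusted p-values), used only for comparison. The annotation release and the use of strand are not given in the sources used here. The labels name paired-end reads, whereas the file names mark single-end reads, so totals count reads or fragments.

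Expected counts were rounded, filtered with filterByExpr, scaled by TMM and fitted with edgeR 4.0.16 (robust quasi-likelihood, Benjamini-Hochberg adjustment over all genes tested, call at an adjusted p under 0.05). The 8 libraries of a line were fitted together without a block, leaving 4 residual degrees of freedom, and all 16 for differences between lines. Each SE was derived as log2 fold change over the square root of F. CPM used TMM-scaled totals. Rows without a gene name: 0. Genes named are the 8 members, and from the 2 pathway lists at most the 3 largest called changes of at least 1 log2 unit per comparison, apart from B2M, SYK and INPP5D. Members and lists were chosen with earlier results of these data known. FCGR1B is the file's symbol for the gene now called FCGR1BP. Alternatives were library totals, RLE factors, DESeq2, no low-count filter, a replicate block, sums over near copies, a GC correction, fits of only the libraries compared and leaving out each library.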

Additional observations from a re-analysis of the deposited data

Results flagged for a closer look

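The effect of an agent differed between the lines for several members by the interaction test over all 16 libraries (edgeR quasi-likelihood, adjusted p under 0.05). Each value is the log2 effect in U-937 minus that in SKNO-1. For ATRA the difference was 2.65 for FCER1G, 2.13 for FCGR1A, 1.73 for FCGRT, 0.91 for FCGR2C and 0.85 for FCGR2A. FCGR1A and FCER1G fell with ATRA in SKNO-1 and rose in U-937, while FCGR2A fell in both. For Corin it was -6.07 for FCGR2B, -2.69 for FCGR2C, -0.87 for FCGRT and -0.61 for FCGR2A, and all 4 rose in both lines. For the combination it was 2.06 for FCER1G, 2.00 for FCGR1A, 1.03 for FCGRT and 0.81 for FCGR2A, and -3.86 for FCGR2B. Line and GM-CSF cannot be told apart in these differences. The DMSO level of FCGR2B in SKNO-1 rests on 23 counts, so its calls here support nothing. FCGR2B and FCGR2C, which share reads, differed when counted together by -2.95 for Corin and -0.74 for the combination.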

How the results depend on the processing

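The counts that moved most were those of SKNO-1, where the DMSO pair is wide. Genes departing from additivity there numbered 81, and 308 with DESeq2, 630 with the GC trend removed and 1445 when low counts were kept. Genes changed by ATRA numbered 1181, and 1963 with no filter, 2600 with the GC trend removed and 239 in a fit of only the libraries compared. For both agents against Corin 1822 became 4238, 2985 and 7440 in the same order. In that last fit Corin in SKNO-1 changed 3776 genes in place of 6619 and the Corin difference between lines 1388 in place of 2538, which was 4136 with the GC trend removed. Of the members, 2 departed from additivity in SKNO-1 and 4 did with the GC trend removed. ATRA called 5 in SKNO-1, or 2 (FCGR2A and FCGR2C) in the fit of only the libraries compared, which called 5 in place of 3 for both agents against Corin. The causes were not tested. In SKNO-1, the lowest values below come from leaving out a treated library and the highest from leaving out a DMSO library. Leaving out single libraries in SKNO-1 gave 0 to 4 members for additivity, 3 to 5 for ATRA and 0 to 5 for both against Corin, and 7 to 5648, 562 to 5335, 397 to 7126, 3626 to 9520 (Corin) and 4962 to 10907 (both against ATRA) genes. It gave 1332 to 2688 genes for Corin in U-937 and 1524 to 4471 for the Corin difference between lines.

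Whether the replicate numbers pair the libraries cannot be decided. Correlations of replicate differences between groups ran from -0.49 to 0.42, but these differences followed GC content in several groups, and no more than 2 numbers exist. With the replicate block, genes departing from additivity in SKNO-1 numbered 20 and members 0, and both agents against Corin changed 1066 genes. The members not called with the block were FCGR2C and FCGR2A for additivity in SKNO-1 (adjusted p = 0.0504 and 0.0575), FCGRT with ATRA in SKNO-1 (0.0703), FCGR1A for both against Corin in SKNO-1 (0.0558), FCGR2A with ATRA in U-937 (0.0522) and FCGR1A for additivity in U-937 (0.0582).

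Directions turned as follows. The FCGR2B ATRA difference between lines (0.00) was -0.091 with library totals, -0.011 with RLE factors, -0.010 with DESeq2, -0.0062 with no filter, -0.0073 in the fit of only the libraries compared and -0.23 to 0.12 without single libraries, and 0.60 when summed with FCGR2C, which was called. FCGR2B additivity in SKNO-1 (0.02) was -0.014 with library totals and -0.10 to 0.24 without single libraries. With library totals the FCGR2C difference for both agents (0.07) was -0.094. With the GC trend removed FCGRT was at -0.057 for both against Corin in SKNO-1 (0.43) and at 0.090 for additivity in U-937 (-0.18). Summed with FCGR3B, the FCGR3A ATRA difference between lines was -1.59. With both agents the sum of FCGR2B and FCGR2C differed between lines by -0.74 (FCGR2C alone 0.07). Between lines with DMSO that sum differed by 0.98 (FCGR2C alone -0.88). It holds FCGR2B too, so it does not show FCGR2C itself turning. Without single libraries FCGR3A ran from -2.39 to 3.12 for the ATRA difference, -4.98 to 0.53 for that of both agents, -3.99 to 0.00 for ATRA in SKNO-1 and -3.12 to 2.39 between lines with DMSO. Depth limits FCGR3A, FCGR3B and FCGR2B in untreated SKNO-1, with at most 13 counts a library.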
